A study of Mus musculus with 9 samples.

Results

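Genes of the NF-kB pathway were followed in mouse embryonic stem cells lacking β-catenin: the feedback genes Nfkbia, Nfkbie, Nfkbiz, Bcl3 and Tnfaip3, the Rel subunit genes Rel and Relb, and the chemokine genes Cxcl1, Cxcl2 and Ccl2. These 10 genes were taken by symbol from the 52264 rows of the count table. The set was chosen by the level of Cxcl2, which was higher with the inhibitor CHIR than in control cells, so every value of CHIR against control below is a description with no test. All 10 passed the low-count filter, as did 15366 rows in all.

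The series concerns GSK3α in stem cell states. All 9 libraries carried the label β-catenin-/-, and there were 3 libraries in each of 3 groups named control (Ctr), BRD0705 and CHIR. The titles call the control untreated. BRD0705 is an inhibitor selective for GSK3α, and CHIR-99021 (CHIR) inhibits both GSK3α and GSK3β. Per the labels' protocols, all groups had been grown on dishes treated with feeders and expanded with 3 µM CHIR-99021, 1 µM PD03 (a MEK inhibitor) and 40 ng/ml LIF. The medium of all groups was N2B27 overnight, and each group then had 30 min of its own condition, at doses that the labels do not give. The CHIR group had therefore met this compound before, and so had the control and BRD0705 groups. The labels do not say whether the cells came from 1 clone or whether replicates were separate cultures, so p-values measure only the spread between these libraries.

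NF-kB factors are dimers of Rel proteins that inhibitor proteins of the IkB family hold in an inactive state. When a receptor such as those for TNF, interleukin-1 or bacterial products is engaged, the IKK kinases mark the inhibitor for degradation and the dimer binds kappaB sites in DNA. Among the fastest targets are the genes of its own inhibitors, which end the response, and chemokines, which attract neutrophils and monocytes. GSK3 has been described as a modulator of NF-kB activity in several cell types. Fibroblasts respond strongly in this pathway, whereas embryonic stem cells are known for a weak response.

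The promoters of the chemokines Cxcl1 and Cxcl2 and of the feedback genes Nfkbia and Tnfaip3 are shown because these are textbook NF-kB targets. Their measured differences between groups were of different size, which no test compared between the genes. The sequences are the 130 bases before the RefSeq start site on the gene's strand (RefSeq table of GRCm38.p6, the build also called mm10), 5′ to 3′, and capitals mark each match to the kappaB consensus on either strand.
Cxcl1 (chr5:90891115-90891244, plus strand): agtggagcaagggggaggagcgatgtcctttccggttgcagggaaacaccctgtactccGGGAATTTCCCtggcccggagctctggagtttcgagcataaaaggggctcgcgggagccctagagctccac
Cxcl2 (chr5:90903769-90903898, plus strand): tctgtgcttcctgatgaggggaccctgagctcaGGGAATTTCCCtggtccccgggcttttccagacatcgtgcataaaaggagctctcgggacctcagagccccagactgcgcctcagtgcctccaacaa
Nfkbia (chr12:55492648-55492777, minus strand): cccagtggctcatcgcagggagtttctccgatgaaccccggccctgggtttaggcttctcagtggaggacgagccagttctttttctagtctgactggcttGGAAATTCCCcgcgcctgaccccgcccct
Tnfaip3 (chr10:19015411-19015540, minus strand): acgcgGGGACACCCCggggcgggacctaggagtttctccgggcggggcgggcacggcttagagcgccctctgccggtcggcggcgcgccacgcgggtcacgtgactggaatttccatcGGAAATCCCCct

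Cxcl1 and Cxcl2 are neighbours on chromosome 5, and both carried the same match GGGAATTTCCC, first base at position -71 in Cxcl1 and -97 in Cxcl2 counted from the start site. Nfkbia carried GGAAATTCCC from position -29, and Tnfaip3 carried GGGACACCCC from -125 and GGAAATCCCC from -12. Of the 10 genes, 7 had a window in the table (250 bases before the start site and 50 from it on), and all 7 held a match: the 4 above, Rel from -92, Nfkbie from -106 and Bcl3 from position 3 after the start. Tnfaip3 had another window, for a start site within the gene, that held none. Among all genes with a window 9.55% held a match, and among all 32851 windows 8.46% did. The 10 genes were chosen as genes of this pathway, so no enrichment is read from these shares. Relb, Nfkbiz and Ccl2 had no window. A match describes letters and not binding, which was not measured.

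Depth was 17359422 to 20773337 counts per library. Levels below are CPM, counts relative to library sizes scaled by the TMM method, and differences are log2 fold changes from edgeR's quasi-likelihood fit of all 9 libraries with their standard errors (SE). A gene was called when its edgeR p, adjusted by Benjamini-Hochberg over the 15366 tested rows, was under 0.05. Ctnnb1, the gene of β-catenin, was counted at a mean of 344 CPM over the 9 libraries and its groups overlapped in each comparison. Without a wild-type group this checks no label. Markers of embryonic stem cells summed to 4370 to 4743 CPM per library. The 20 fibroblast markers, the cells a feeder layer holds, summed to 3800 to 5144 CPM and none was at 0 in any library, so fibroblast RNA was present in all 3 groups. Macrophage and leukocyte markers summed to 14.6 to 18.2 CPM, primitive endoderm markers to 16.8 to 24.9 CPM and endothelial markers to 15.6 to 19.4 CPM.

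Per kilobase of exons, the chemokine Ccl2 was the highest of the 10 genes at a mean of 60.8 CPM per kb over the 9 libraries, followed by Cxcl1 at 22.7, Nfkbia at 16.2 and Bcl3 at 11.6. Relb stood at 3.14 CPM per kb, Nfkbiz at 2.15, Cxcl2 at 1.77, Nfkbie at 1.00, Tnfaip3 at 0.717 and Rel at 0.503. From Ccl2 down to Nfkbiz, each gene's range over the 9 libraries lay wholly below that of the gene before it. From Nfkbiz on, the ranges of neighbours overlapped, and Nfkbiz exceeded Cxcl2 in 7 of 9 libraries. The abundant genes were therefore 2 of the chemokines and 2 inhibitor genes, and the gene that led to the choice, Cxcl2, was among the less abundant ones. In bulk RNA, fewer cells of a type and less RNA per cell cannot be told apart.

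**Figure D1:**
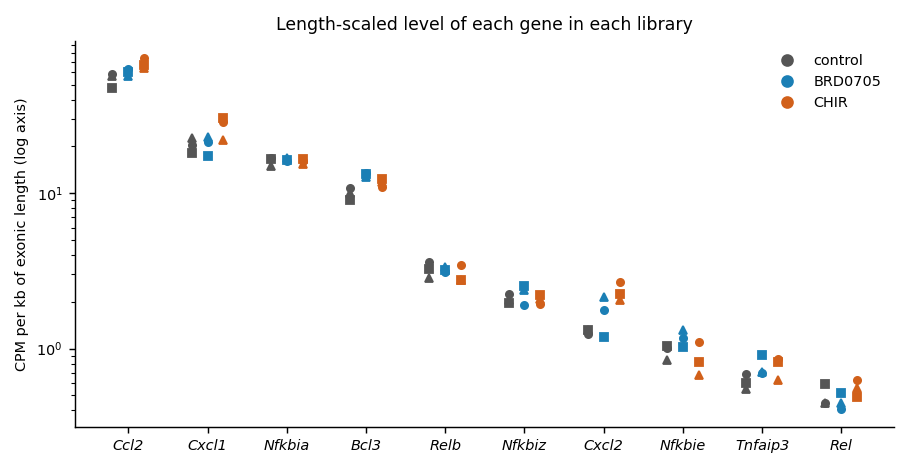
Length-scaled level (CPM per kb of exons, log axis) of each gene in each of the 9 libraries, in order of the mean, with colours for the 3 groups. Ccl2 lies highest at a mean of 60.8 and Rel lowest at 0.503, and the ranges of neighbouring genes overlap from Nfkbiz on.

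The 3 chemokines are given first. Cxcl2, a ligand of the neutrophil receptor Cxcr2, was at 2.56, 2.71 and 2.71 CPM in control replicates 1 to 3, at 3.64, 2.45 and 4.42 CPM with BRD0705, and at 5.58, 4.62 and 4.26 CPM with CHIR. Every CHIR library was above every control library, and the BRD0705 libraries reached from below the controls to within the CHIR range. The means were 2.66 ± 0.0854, 3.50 ± 0.992 and 4.82 ± 0.681 CPM (SD, n = 3 each). The log2 fold change of CHIR against control was 0.86 ± 0.19 (SE), the value behind the choice of these genes.

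Cxcl2 rested on few reads: 52 to 56 counts per control library, 43 to 93 with BRD0705 and 78 to 112 with CHIR. The control libraries varied less (coefficient of variation 3.21%) than Poisson counting alone gives at that depth (13.6%), whereas BRD0705 varied by 28.3% against 12.1% from counting. BRD0705 against control gave a log2 difference of 0.41 ± 0.20 (SE) with a 95% interval of -0.01 to 0.83, and edgeR's adjusted p was 0.333. That interval runs from just below 0 to just under the CHIR value. BRD0705 against CHIR was -0.45 ± 0.19, given as a description because the CHIR libraries chose Cxcl2.

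Of the 50-base stretches of Cxcl2's transcripts, 5.84% also occur in its paralog Cxcl3, and none of Cxcl1's are shared with another gene. Cxcl3 stood at 2.35 ± 0.486 CPM in control, 2.17 ± 0.0787 under BRD0705 and 1.58 ± 0.263 under CHIR (SD, n = 3 each), so its mean was lowest in the group where that of Cxcl2 was highest. Its difference between BRD0705 and control was -0.12 on the log2 scale (edgeR adjusted p = 0.838). Shared reads could be split between these paralogs in a way that the sources used here do not give.

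Cxcl1, another ligand of Cxcr2, was at 38.7, 34.1 and 42.4 CPM in control replicates 1 to 3, at 40.0, 32.8 and 43.4 CPM with BRD0705, and at 54.0, 57.0 and 41.7 CPM with CHIR. CHIR replicates 1 and 2 were above all other libraries, and CHIR replicate 3 was within the range of the control and BRD0705 libraries. The group means were 38.4 ± 4.15, 38.7 ± 5.38 and 50.9 ± 8.12 CPM (SD, n = 3 each). The log2 difference of CHIR against control was 0.41 ± 0.11 (SE). BRD0705 and control differed by 0.02 ± 0.11 (95% interval -0.22 to 0.25, edgeR adjusted p = 0.968).

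BRD0705 was lower than CHIR for Cxcl1, by a log2 fold change of -0.39 ± 0.11 (SE, 95% interval -0.62 to -0.16, edgeR adjusted p = 0.0341), although 1 CHIR library lay among those of BRD0705. This comparison uses the CHIR libraries that also served the choice of the genes. The call rested on single libraries: without BRD0705 replicate 1, BRD0705 replicate 2, CHIR replicate 1 or CHIR replicate 2 it was lost, with edgeR adjusted p up to 0.160 and log2 fold changes of -0.52 to -0.29 over all 9 such fits. It was also lost with library size as the only scaling (-0.36, edgeR adjusted p = 0.0555). Over all alternatives the edgeR or DESeq2 adjusted p ran from 4.11e-06 to 0.160.

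Ccl2 (chr11:82035577-82037452 in GRCm38.p6), which attracts monocytes through Ccr2, was at 66.3, 54.2 and 64.8 CPM in control, at 71.4, 68.4 and 64.5 CPM with BRD0705 and at 84.1, 75.9 and 73.1 CPM with CHIR. All CHIR libraries lay above all others, and the BRD0705 libraries overlapped control in replicate 3 only. CHIR against control gave 0.33 ± 0.08 on the log2 scale (SE). BRD0705 did not pass against control (0.14, 95% interval -0.02 to 0.30, edgeR adjusted p = 0.390) or against CHIR (-0.19, 95% interval -0.35 to -0.03, edgeR adjusted p = 0.134). In the plot of levels by library, all 3 CHIR points stand above all others for Ccl2, but not for Cxcl1 or Cxcl2.

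**Figure D2:**
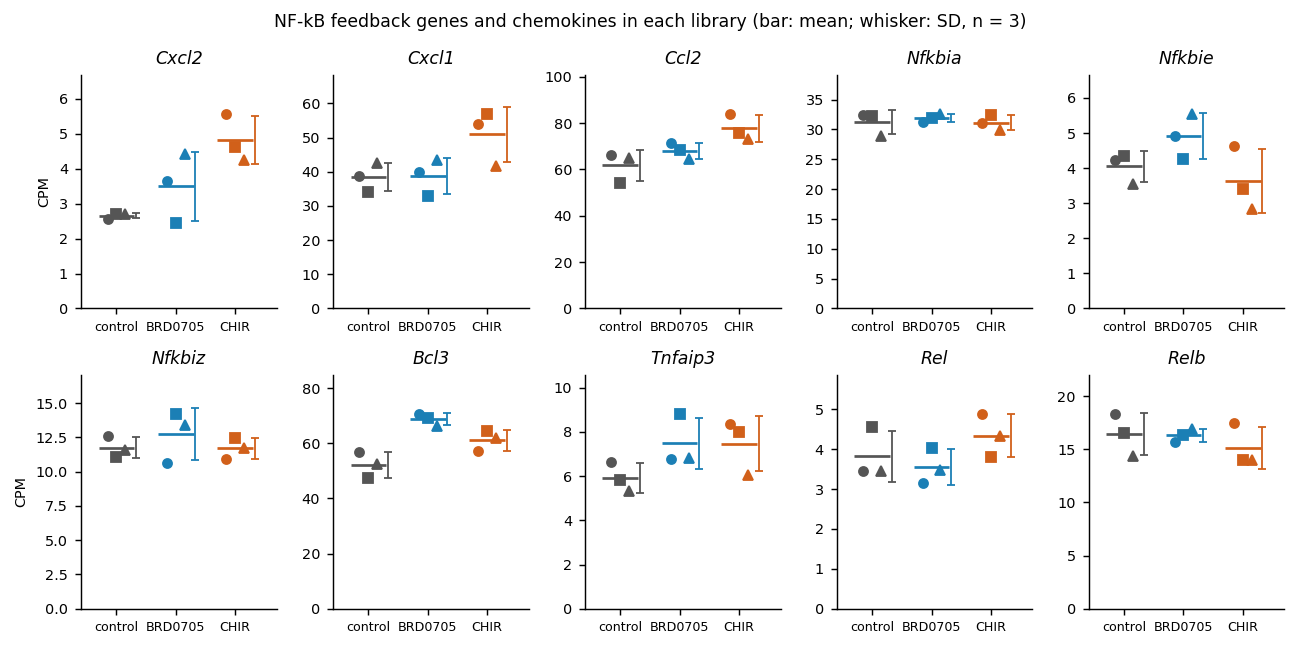
CPM of the 10 genes in each library (y axis from 0; circle, square and triangle are replicates 1, 2 and 3; bar, group mean; whisker, SD, n = 3). The 3 CHIR libraries lie above all controls for Cxcl2, Ccl2 and, narrowly, Bcl3. All BRD0705 libraries lie above all controls for Bcl3 and Tnfaip3, and Nfkbia is level across groups.

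Among the feedback genes, Bcl3 was the one that passed a test. Bcl3 (chr7:19808462-19822824 in GRCm38.p6) encodes an atypical IkB protein that sits in the nucleus with p50 or p52 dimers and can activate or repress their targets. It was at 56.7, 47.4 and 52.5 CPM in control, at 70.7, 69.2 and 66.4 CPM with BRD0705 and at 57.1, 64.4 and 61.8 CPM with CHIR. Every BRD0705 library was above every control library, and also above every CHIR library. Every CHIR library was above every control library too, narrowly in the nearest pair (57.1 and 56.7 CPM). Bcl3 rose with BRD0705 by 0.40 ± 0.07 on the log2 scale (SE, 95% interval 0.25 to 0.54, edgeR adjusted p = 0.00920).

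CHIR against control was 0.23 ± 0.07 for Bcl3, and BRD0705 and CHIR differed by 0.17 (95% interval 0.03 to 0.32, edgeR adjusted p = 0.139), so a difference between the inhibitors was not shown. The call for BRD0705 held in 7 of 9 fits that left out 1 library, and was lost without control replicate 2 (0.34, edgeR adjusted p = 0.0608) and without BRD0705 replicate 1 (0.38, edgeR adjusted p = 0.0655). With the fibroblast marker score as a covariate the difference was 0.36 and the edgeR adjusted p 0.217. That covariate lowered the calls between BRD0705 and control over all tested genes from 188 to 5. The score was higher in every BRD0705 library than in every control library, so it and the treatment cannot be told apart here. Of its 50-base stretches 4.32% also occur in other genes. Bcl3 has a GC content of 60.3%, the highest of the 10, and with a correction of each library for GC content and length the difference was 0.31 (edgeR adjusted p = 0.0309). Over all alternatives its edgeR or DESeq2 adjusted p ran from 1.31e-06 to 0.217.

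Nfkbia, the classical inhibitor IkBα and a standard early readout of NF-kB activity, was at 32.4, 32.3 and 28.9 CPM in control, at 31.3, 31.9 and 32.7 CPM with BRD0705 and at 31.2, 32.4 and 29.8 CPM with CHIR. The 3 groups overlapped throughout. Of Nfkbia's 50-base stretches 4.76% also lie in Gm36634 on the opposite strand, and reads there may not be separated. Gm36634 had 2 to 9 counts per library, beside 546 to 688 for Nfkbia. BRD0705 against control was 0.03 with a 95% interval of -0.10 to 0.17 (edgeR adjusted p = 0.857), the narrowest interval of the 10 genes, whose upper end is under the change measured for Bcl3. CHIR against control was -0.00, and BRD0705 against CHIR was 0.04 (95% interval -0.10 to 0.18, edgeR adjusted p = 0.794).

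Tnfaip3, which encodes the ubiquitin-editing enzyme A20 that shuts off signalling to IKK, was at 6.65, 5.81 and 5.32 CPM in control, at 6.79, 8.82 and 6.84 CPM with BRD0705 and at 8.37, 7.98 and 6.07 CPM with CHIR. The BRD0705 libraries lay above all controls, narrowly in the nearest pair, while CHIR replicate 3 overlapped control. BRD0705 against control was 0.33 ± 0.15 (SE, 95% interval 0.02 to 0.64, edgeR adjusted p = 0.286). CHIR against control was 0.34, and the inhibitors differed by -0.01 (95% interval -0.31 to 0.30, edgeR adjusted p = 0.988).

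Nfkbie, the inhibitor IkBε, was at 4.24, 4.36 and 3.55 CPM in control, at 4.92, 4.27 and 5.56 CPM with BRD0705 and at 4.64, 3.41 and 2.84 CPM with CHIR. BRD0705 gave 0.28 against control (95% interval -0.09 to 0.65, edgeR adjusted p = 0.459) and 0.43 against CHIR (95% interval 0.06 to 0.81, edgeR adjusted p = 0.157). Its groups overlapped in each comparison, and its CHIR libraries spread more widely (25.2%) than counting gives (12.04%).

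Nfkbiz, the atypical inhibitor IkBζ needed for a set of secondary targets, was at 12.6, 11.1 and 11.6 CPM in control, at 10.6, 14.2 and 13.4 CPM with BRD0705 and at 10.9, 12.4 and 11.8 CPM with CHIR. The groups overlapped. BRD0705 against control was 0.12 (95% interval -0.11 to 0.34, edgeR adjusted p = 0.657), CHIR against control -0.01, and BRD0705 against CHIR 0.13 (edgeR adjusted p = 0.539).

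The Rel subunit genes did not pass either test, and their groups overlapped. Rel, the c-Rel subunit known from lymphocytes, was at 3.45, 4.55 and 3.45 CPM in control, at 3.16, 4.04 and 3.47 CPM with BRD0705 and at 4.88, 3.80 and 4.32 CPM with CHIR. It differed by -0.11 between BRD0705 and control (95% interval -0.47 to 0.25, edgeR adjusted p = 0.824) and by -0.29 between BRD0705 and CHIR (95% interval -0.65 to 0.07, edgeR adjusted p = 0.329). Relb, the subunit of the non-canonical pathway, was at 18.3, 16.6 and 14.4 CPM in control, at 15.7, 16.3 and 16.9 CPM with BRD0705 and at 17.4, 14.0 and 14.0 CPM with CHIR. Its differences were -0.01 (95% interval -0.22 to 0.20, edgeR adjusted p = 0.980) and 0.10 (95% interval -0.11 to 0.32, edgeR adjusted p = 0.604). CHIR against control was 0.18 for Rel and -0.11 for Relb.

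Counted together, 1 of the 10 genes was called between BRD0705 and control, beside 1.22% of all tested genes. At an unadjusted p under 0.05 it was 2 of 10, beside 15.9% of all tested genes, and the groups did not overlap for 2 of 10, beside 20.2%. Both of those genes, Bcl3 and Tnfaip3, were higher with BRD0705, beside 9.83% of all tested genes. Between BRD0705 and CHIR, 1 of 10 was called, beside 7.77% of all tested genes, and the groups did not overlap for 2 of 10, beside 26.7%. Without Cxcl2, whose CHIR level made the choice, 1 of 9 was called and 4 of 9 had an unadjusted p under 0.05, beside 22.5%. Of the genes without overlap, Bcl3 was higher with BRD0705, beside 13.7%, and Ccl2 lower. The single calls were Bcl3 and Cxcl1, and the shares without overlap were near the background. For CHIR against control, the contrast used in the choice, 3 of 10 were past the threshold, beside 6.3% of all tested genes, with Cxcl2 among them by the choice itself. In that contrast 5 of 10 had an unadjusted p under 0.05, beside 20.5%, 3 of 10 did not overlap, beside 25.1%, and nothing is read from these counts. Over the 10 genes, the median log2 fold change was 0.13 for BRD0705 against control, beside -0.00 over all tested genes. It was 0.016 for BRD0705 against CHIR, beside 0.004. For CHIR against control it was 0.21, beside -0.01, as a description that includes Cxcl2.

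**Figure D3:**
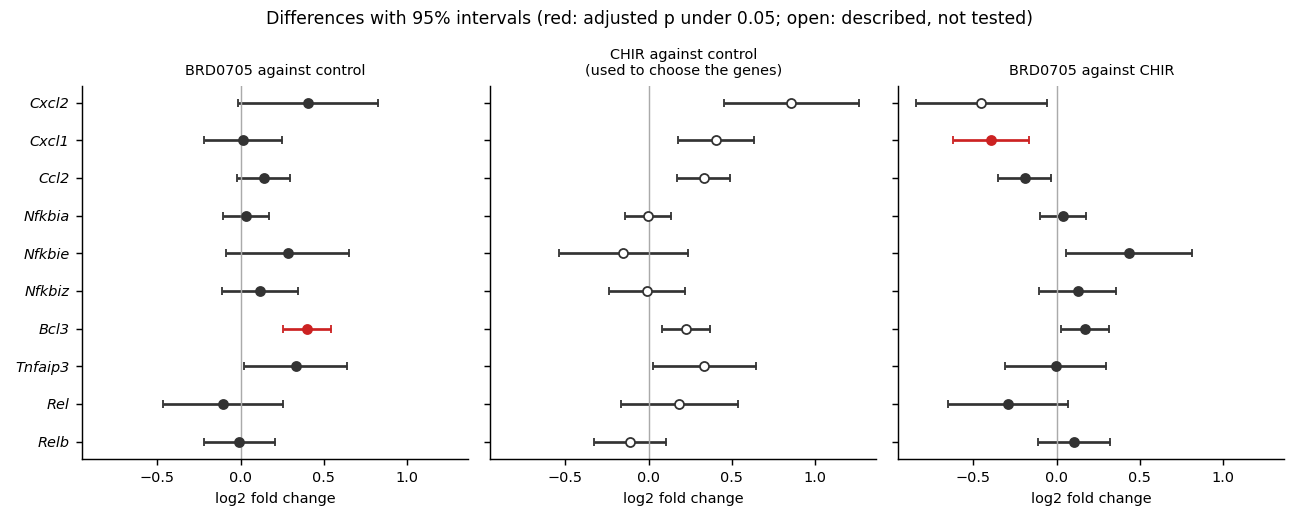
Log2 fold change of each gene with its 95% interval in the 3 comparisons (red, edgeR adjusted p under 0.05; open points, described and not tested). Bcl3 is called for BRD0705 against control at 0.40 and Cxcl1 for BRD0705 against CHIR at -0.39. The intervals of Nfkbia lie close around 0 in all 3.

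Levels of fibroblast markers also differed between the groups. The fibroblast score, the mean log2 CPM of the 20 markers, was 5.88, 5.69 and 5.73 in control, 6.02, 5.96 and 6.05 with BRD0705 and 6.11, 6.10 and 5.78 with CHIR. Both inhibitor groups had a mean above control, by 0.24 for BRD0705 and 0.23 for CHIR, and they differed from each other by 0.01. Of the 19 markers tested in edgeR, 3 rose with BRD0705 against control, beside 1.22% of all tested genes, and 12 had an unadjusted p under 0.05, beside 15.9%. DESeq2 gave 17 markers an adjusted p and called 7 higher, beside 471 genes or 5.48% of all genes with one. With CHIR against control 5 markers were past the threshold in edgeR, beside 6.3% of all tested genes. DESeq2 had 6 of 19 past it, beside 6.46% of all genes with an adjusted p, and all were higher. Between the inhibitors 0 were called by edgeR, beside 7.77% of all tested genes, or by DESeq2, and 1 had an unadjusted p under 0.05 in edgeR. The groups did not overlap for 11 of 19 markers between BRD0705 and control, beside 20.2%, and for 2 of 19 between CHIR and control, beside 25.1%. In edgeR, 3 of 10 embryonic stem cell markers were called lower and 2 of 5 primitive endoderm markers higher with BRD0705 than with CHIR. With CHIR against control, 2 of 10 stem cell markers were past the threshold, both higher. Neither list had a call between BRD0705 and control. CHIR replicate 3 had a score within the control range. In that library Cxcl1 was within the control range as well, while Cxcl2 at 4.26 CPM and Ccl2 at 73.1 CPM were above every control library.

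The levels were also set relative to the fibroblast score of the same library, as log2 CPM minus the score. On this scale a gene level in CPM is lower where the score is higher. Between BRD0705 and control 45.9% of all tested genes were lower without overlap of the groups and 0.579% were higher. Bcl3 was higher with BRD0705 by 0.16 without overlap, against 0.40 in the fit of CPM. Nfkbia (-0.21), Relb (-0.25) and Cxcl1 (-0.24) were lower without overlap, as were many genes, and the groups of the other 6 overlapped. Between CHIR and control, as a description, Cxcl2 differed by 0.59, Cxcl1 by 0.16 and Ccl2 by 0.10. Nfkbia (-0.24), Nfkbie (-0.41), Nfkbiz (-0.24) and Relb (-0.35) were lower without overlap, beside 25.3% of all tested genes.

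Between BRD0705 and CHIR, where the mean scores differed by 0.01, Cxcl1 was lower by 0.40 and Ccl2 by 0.20 on the relative scale, and Nfkbie was higher by 0.44, each without overlap. Over all tested genes 13.4% did not overlap in this comparison. With the score as a covariate in the fit, the log2 difference of CHIR against control, again as a description, was 0.64 for Cxcl2, 0.11 for Cxcl1 and 0.21 for Ccl2, and Cxcl1 between BRD0705 and CHIR kept its call (-0.39, edgeR adjusted p = 0.00847). Which cells held the transcripts was not tested.

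**Figure D4:**
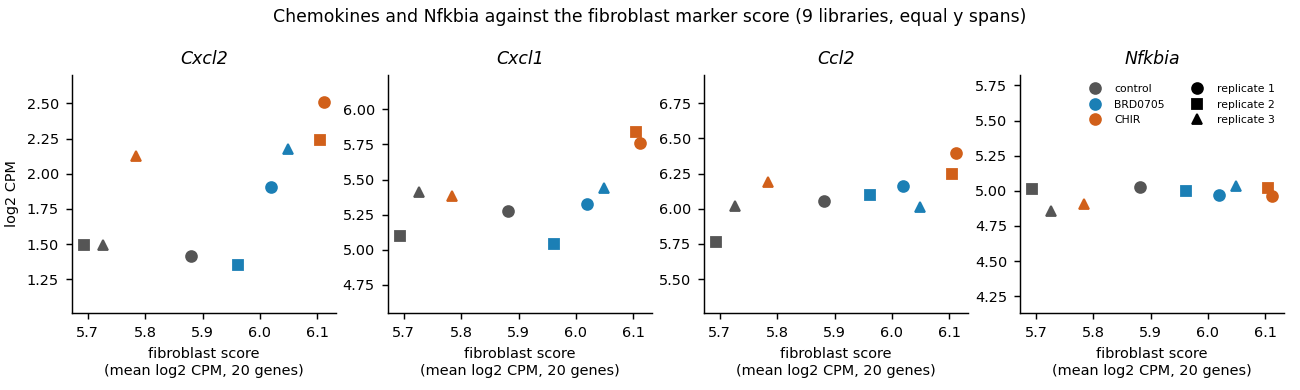
Log2 CPM of Cxcl2, Cxcl1, Ccl2 and Nfkbia (y axes of equal span) against the fibroblast score (mean log2 CPM of 20 genes) in the 9 libraries, with colours for groups and symbols for replicates. CHIR replicate 3, at a score of 5.78 among the controls, has a Cxcl2 level above every control and a Cxcl1 level inside the control range.

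Beside these 10 genes, a list of 90 other NF-kB pathway genes was examined, of which 82 passed the filter. Tnf, Lta, Il18, Tlr6, Tlr9, Traf5, Csf3 and Cd83 did not. Between BRD0705 and control 2 of 82 rose and 0 fell, both of them target genes that encode secreted factors. The background was 0.69% of all tested genes called higher and 0.534% called lower. In edgeR 22 of the 82 had an unadjusted p under 0.05 in either direction, beside 15.9% of all tested genes. DESeq2 called 4 higher and 1 lower of the 45 list genes to which it gave an adjusted p, beside 5.48% of all genes with one. Between BRD0705 and CHIR, 3 were higher and 2 lower with BRD0705, beside 4.8% and 2.97% of all tested genes. For CHIR against control 7 were higher and 2 lower past the threshold, beside 2.52% and 3.78%, as a description.

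Csf1, the macrophage growth factor, was at 77.7, 65.0 and 69.7 CPM in control, at 108.4, 102.9 and 101.8 CPM with BRD0705 and at 95.5, 99.0 and 91.0 CPM with CHIR. The groups of both inhibitors lay above all controls. Csf1 rose with BRD0705 by 0.56 ± 0.06 in log2 (SE, with edgeR adjusted p = 0.000569). Ccl7, a monocyte chemokine and relative of Ccl2, rose from 36.0 ± 2.28 to 51.6 ± 2.46 CPM (SD, n = 3 each), a log2 fold change of 0.52 ± 0.07 (SE, edgeR adjusted p = 0.00134). It was at 58.0 ± 3.52 CPM with CHIR. Both calls held in 9 of 9 fits without 1 library. Both were lost with the fibroblast score as a covariate (0.44 with edgeR adjusted p = 0.0709 for Csf1, 0.39 with 0.119 for Ccl7). In that fit the calls between BRD0705 and control over all tested genes fell from 188 to 5. As for Bcl3, the score and the treatment cannot be told apart in this fit.

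Between the inhibitors, Ptgs2, which encodes the inducible cyclooxygenase COX-2, was at 53.5, 60.4 and 54.2 CPM in control, at 59.1, 69.8 and 60.7 CPM with BRD0705 and at 87.1, 93.4 and 77.2 CPM with CHIR. All CHIR libraries stood above all others. BRD0705 was lower than CHIR by a log2 fold change of -0.44 ± 0.08 (SE, edgeR adjusted p = 0.00178). Ier3, an immediate early gene, had the same order with 90.7 ± 1.67, 94.97 ± 5.16 and 117.6 ± 6.86 CPM in the control, BRD0705 and CHIR groups (SD, n = 3 each), and a difference of -0.31 ± 0.06 (SE, edgeR adjusted p = 0.00343).

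Other pathway genes were lowest with CHIR. Irf1, a transcription factor of interferon and NF-kB responses, was at 48.6 ± 2.95, 50.02 ± 2.13 and 40.8 ± 1.93 CPM in the control, BRD0705 and CHIR groups (SD, n = 3 each), higher with BRD0705 than with CHIR by 0.30 ± 0.06 (SE, edgeR adjusted p = 0.00847). Tab1, a partner of the kinase Tak1, was at 7.59 ± 0.302, 8.83 ± 0.268 and 5.81 ± 0.916 CPM, a difference of 0.60 ± 0.12 (SE, edgeR adjusted p = 0.00544). Tlr5, the flagellin receptor, was at 2.52 ± 0.569, 2.84 ± 0.467 and 1.02 ± 0.0858 CPM, a difference of 1.45 ± 0.24 (SE, edgeR adjusted p = 0.00112). Tlr5 rested on few reads: 40 to 63 counts per control library, 49 to 57 with BRD0705 and 17 to 22 with CHIR. These 5 calls between the inhibitors held in 9 of 9 fits without 1 library. For CHIR against control, the genes past the threshold with the largest values were Ccl7 (0.69), Ptgs2 (0.62), Tnfaip2 (0.48) and Tnfrsf1b (0.44) on the higher side, and Tlr5 (-1.29) and Irf1 (-0.25) on the lower side. Csf1, Ier3 and Tab3 were also past it, all higher.

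By role, no call in either tested comparison fell among the 6 ligands, 7 other Rel subunits and IkB proteins or 9 other negative regulators that passed the filter, beside 1.22% and 7.77% of all tested genes, so a count of 0 is near the background. DESeq2 also called 0, but it did not give all of them an adjusted p. Between BRD0705 and control it gave one to 0 ligands, 5 Rel and IkB genes and 8 negative regulators. Between BRD0705 and CHIR these numbers were 2, 7 and 9. In edgeR 1, 3 and 2 genes of these roles had an unadjusted p under 0.05 between BRD0705 and control, beside 15.9% of all tested genes. Between BRD0705 and CHIR it was 1, 1 and 0, beside 22.5%. Rela, the p65 subunit of the canonical dimer, was at 51.3 ± 4.75, 58.6 ± 4.74 and 53.7 ± 2.29 CPM in the control, BRD0705 and CHIR groups (SD, n = 3 each), a BRD0705 difference from control of 0.19 (edgeR adjusted p = 0.197). Nfkb1, the gene of p105 and p50, differed by 0.01 (edgeR adjusted p = 0.943). Among the IKK genes, Chuk differed by -0.07, Ikbkb by 0.08 and Ikbkg by -0.09 between BRD0705 and control (edgeR adjusted p = 0.749, 0.684 and 0.738). Over the 82 genes the median log2 fold change was 0.08 for BRD0705 and 0.03 for CHIR against control.

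**Figure D5:**
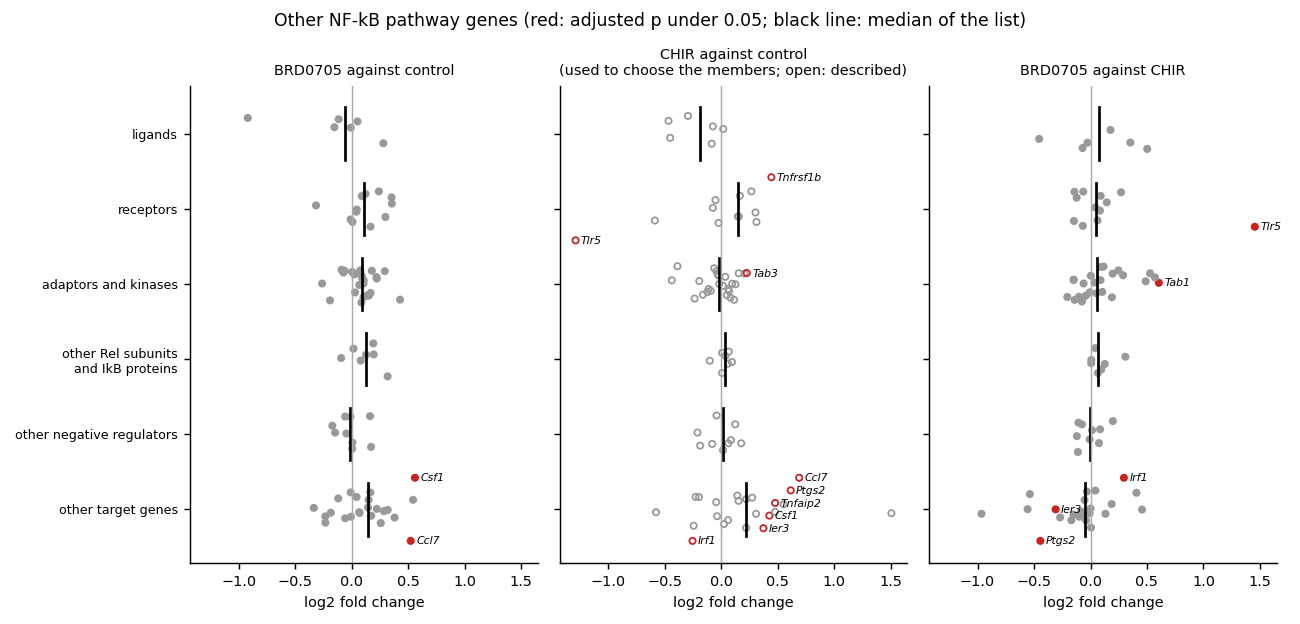
Log2 fold changes of the 82 tested pathway genes by role in the 3 comparisons (black line, median of the role; red, edgeR adjusted p under 0.05; open points, described). Csf1 (0.56) and Ccl7 (0.52) are the called genes for BRD0705 against control, and Ptgs2, Ier3, Irf1, Tab1 and Tlr5 those for BRD0705 against CHIR.

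The genes whose pattern over the 9 libraries was most like that of Cxcl2 were sought among 12398 candidates by the root mean square difference of log2 CPM after centring each gene. Gm53057 (0.160), Rgs16 (0.196), Pdlim4 (0.199), Gm7008 (0.202) and F3 (0.203) were the nearest. Rgs16 encodes a regulator of G protein signalling and F3 encodes tissue factor, the initiator of coagulation. Rgs16 was at 8.80 ± 0.457, 9.18 ± 1.09 and 13.1 ± 1.61 CPM in the control, BRD0705 and CHIR groups (SD, n = 3 each), and F3 at 8.08 ± 0.637, 9.24 ± 1.44 and 10.9 ± 0.755 CPM. Of the other members, Cxcl1 was nearest at 0.242, with 0.121% of the candidates closer, and Ccl2 followed at 0.311, with 1.78% closer. The 7 inhibitor and Rel genes lay between 0.393 and 0.482, around the median of all candidates of 0.416. The measure was taken over libraries that include those that chose Cxcl2, so this order is a description.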

How the data were processed

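The 9 libraries (3 each of control, BRD0705 and CHIR) were grouped by the labels. The authors deposited whole-number read counts per gene symbol. Per the submitters' processing notes, RSEM, DESeq2 and the build mm10 were used. Their roles, versions and settings, the gene annotation and whether strand was used are not given in the sources used here. RSEM gives estimated counts, so the deposited counts may be rounded, and reads of a gene and its antisense partner may not be separated. Per the labels' protocols, libraries were made with a TruSeq kit and RiboZero, while the molecule label says polyA RNA. The deposited normalized table was not used.

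Counts were fitted with edgeR 4.0.16 in R 4.3.3: TMM scaling, filterByExpr with a minimum count of 10, 1 quasi-likelihood fit of 3 group means with 6 residual degrees of freedom, and 2-sided F tests adjusted over 15366 rows with a threshold of 0.05. Log2 CPM used a prior count of 2. Intervals are at 95%. Counts were simulated for BRD0705 against control, gene by gene and without shifts shared within a library, with 15179 genes tested. Among genes with a mean CPM of at least 2, 97.3% of log2 changes of 1 and 78.3% of log2 changes of 0.5 were recovered. Of the calls, 3.38% were false. These shares of recovery pool all levels above that limit. They do not give the recovery for sparsely counted members such as Cxcl2 (SE 0.20), Nfkbie (SE 0.18) or Rel (SE 0.17). Within groups, the chi-square of counts per degree of freedom was 3.37 to 7.89, so all libraries differed by more than sampling noise.

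The members, the gene lists and the tests were chosen with earlier results of these data known. Named were all 10 members, up to 4 higher and 4 lower pathway genes past the threshold in each comparison, by largest log2 fold change, and the 5 genes nearest to Cxcl2 in pattern. Single background genes of the pathway (Rela, Nfkb1, the IKK genes and Cxcl3) were named for their role after their values were seen. Both tested comparisons share libraries with the contrast that chose the members. Exonic length, GC content and shared 50-base stretches came from GENCODE vM39 on GRCm39, and start sites and promoters from a RefSeq table on GRCm38.p6. Alternatives were DESeq2 1.42.0, other scalings and filters, only the groups compared, a replicate block, the fibroblast score as a covariate, leaving out each library and, chosen after seeing the data, a GC and length correction without and with the block.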

Additional observations from a re-analysis of the deposited data

How the results depend on the processing

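Of the values of single genes under the alternatives, 817 in number, 777 kept their direction and 40 changed sign. Of the 40, 20 were in the tested comparisons and 20 in CHIR against control. Direction could be kept while a call was lost, as for Bcl3, Cxcl1, Csf1 and Ccl7 under at least 1 alternative each. The members called between BRD0705 and control (1) became 0 with the fibroblast score as a covariate and 0 to 1 when 1 library was left out. Those called between BRD0705 and CHIR (1) became 0 with library size only, 0 with the GC and length correction plus the block, and 0 to 1 without 1 library. Pathway genes called between BRD0705 and control (2) were 5 with DESeq2, 4 without a low-count filter, 0 with the fibroblast covariate and 2 to 3 without 1 library. Those of CHIR against control (9) were 3 with the covariate, 15 with the GC and length correction, 15 with it and the block, and 6 to 10 without 1 library, and those of BRD0705 against CHIR (5) were 5 to 6. All genes called between BRD0705 and control (188) were 471 with DESeq2, 609 without a filter, 5 with the covariate, 118 with the GC and length correction, 121 with it and the block, and 21 (without BRD0705 replicate 1) to 305 (without BRD0705 replicate 3). Those of CHIR against control (968) were 197 with the covariate, 1538 with the GC and length correction, 1512 with it and the block, and 514 to 1070 without 1 library. Those of BRD0705 against CHIR (1194) were 616 to 1313 without 1 library. The cause of these shifts was not tested.

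Sign changes in the tested comparisons were all in uncalled values. In CHIR against control they were in Nfkbia (13 alternatives, range -0.072 to 0.064), Nfkbiz (6, -0.048 to 0.054) and Nfkbie (1, -0.50 to 0.00347). Between BRD0705 and control, the covariate gave -0.037 for Nfkbia, -0.062 for Nfkbie and -0.28 for Cxcl1. Leaving out 1 library gave -0.00997 to 0.068 for Nfkbia, -0.20 to 0.0496 for Rel, -0.088 to 0.079 for Relb and -0.066 to 0.12 for Cxcl1. Between BRD0705 and CHIR, Nfkbia was -0.0366 with the GC and length correction and -0.0348 with it and the block, and Tnfaip3 was 0.0252 with library size only, 0.000128 with a mean CPM of at least 1, 0.00402 with the replicate block and -0.14 to 0.085 without 1 library. Library size only moved the share of calls that were higher from 40.0 to 26.4% for CHIR against control and from 61.8 to 79.2% for BRD0705 against CHIR. Equal replicate numbers did not pair the libraries (mean correlation of deviations -0.00119 over 9 same-numbered pairs, range -0.0897 to 0.0802, and 2 of 9 libraries matched their own number best). With the replicate block, 222, 973 and 1177 genes were called in the 3 comparisons, 1 member in each tested comparison, and 2, 9 and 5 pathway genes.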
